A study of Mus musculus with 2 samples.

Results

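The genes described here encode 3 early growth response factors (Egr1, Egr2 and Egr3), the NAB corepressors that bind them (Nab1 and Nab2), MYC, and 4 Krüppel-like factors (Klf2, Klf4, Klf6 and Klf10). These 10 genes were chosen by name, out of 20656 genes on the array that could be matched to a symbol. Their probes were found through the RefSeq accession given for each probe in the scanner output. In all, 11 of 39424 probes belonged to them, 2 for Nab2 and 1 for each of the others. The cells were bone marrow-derived macrophages (BMDMs) of male 8-week-old Crif1 f/f mice, grown in culture with M-CSF for 7 days. Both groups carried the floxed Crif1 allele, and the sources used here do not say whether they carried Cre. One group was left untreated and one received IL-4 for 18 h, and each was hybridised to 1 single-colour Agilent array. In the study these arrays served to search for IL-4-responsive macrophage factors.

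EGR and KLF proteins bind GC-rich DNA through zinc fingers of the C2H2 type, and several of them are encoded by immediate early genes, which are transcribed within minutes of a stimulus without new protein synthesis. NAB1 and NAB2 bind a repression domain of EGR proteins and limit what they activate, and NAB2 is itself an EGR target, which closes a feedback loop. IL-4 signals through JAK kinases and STAT6, and in macrophages EGR2, KLF4 and MYC are all known as parts of the alternatively activated (M2-like) state. MYC pairs with MAX at E-box sequences and is best known for driving genes of ribosome biogenesis and growth.

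With 1 array per condition there was no replicate, so no difference below was tested and no p-value is given. Precision is limited by there being only 2 arrays. Values are background-subtracted intensities, and a log2 difference is IL-4 minus untreated after subtraction of each array's 75th percentile. Errors are quoted in 2 ways. The spot SD comes from gene probes with 10 spots each on an array and a signal near that of the member. It is the median, over those probes, of the SD of the log2 difference among spots. The software error combines the intensity errors that the scanner software gives for both arrays. Neither covers the spread between cultures. The arrays were on 1 slide read in 1 scan, 59.8% and 57.4% of gene spots were well above background on the untreated and the IL-4 array, and no gene spot was saturated. The treatment label was borne out by the IL-4 response genes Arg1 and Retnla, and Arg1 had an intensity of 84.9 untreated and 19688 after IL-4. All 6 macrophage markers with a probe were well above background on both arrays. Their log2 differences were 0.17 for Adgre1, 0.09 for Csf1r, -0.70 for Lyz2, -0.71 for Itgam, -1.14 for Mertk and -1.23 for Fcgr1. All 6 fibroblast and all 6 neutrophil markers with a probe were also well above background on both arrays. The fibroblast markers lay between -0.34 (Col1a1) and 0.52 (Lum), with 2 of 6 above 0, and the neutrophil markers between -0.61 (Camp) and 0.30 (Mpo), with 1 of 6 above 0. Their summed intensities, of which a single bright probe holds most in each list, were 324153 untreated and 317280 after IL-4 for the fibroblast markers and 38341 and 36961 for the neutrophil markers. The part of such cells in the values below was not tested, and in bulk RNA fewer cells of a type and less RNA per cell cannot be told apart. The lymphocyte marker Cd3e was detected on both arrays, Cd2 on the untreated array only, and the other 4 lymphocyte markers on neither. Of the dendritic cell markers 2 of 4, and of the eosinophil and mast cell markers 2 of 6, were detected on both arrays. The mast cell marker Cpa3 was detected on the untreated array only. Its intensities were 91.2 and 6.37, at least 3.51-fold lower after IL-4 with the processing used here. That bound is -1.81 on the log2 scale, and the value was as small as -1.03 with other processing. The other 3 of that list were detected on neither. None of the 3 erythroid markers with a probe was well above background.

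Egr2 was the member that differed most between the arrays, 7.86-fold higher after IL-4. Klf4 was 2.05-fold, Klf10 1.87-fold and Myc 1.78-fold higher. Nab2 was 1.44-fold lower. Egr1, Klf6 and Nab1 differed by less than the software error, and Egr3 did not rise well above background on an array of either kind. Of the 9 members measured on both arrays, 2 passed 2-fold on the higher side and 0 on the lower. For comparison, 14093 genes were detected on 1 array or both, and of these 3.06% reached 2-fold higher and 3.35% reached 2-fold lower. At a 1.5-fold cutoff 4 members were higher, where 6.36% of all genes were, and 0 were lower, where 8.98% of all genes were. The median log2 difference of the 9 members was 0.07, beside -0.01 for the 12744 genes measured on both arrays.

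**Figure D1:**
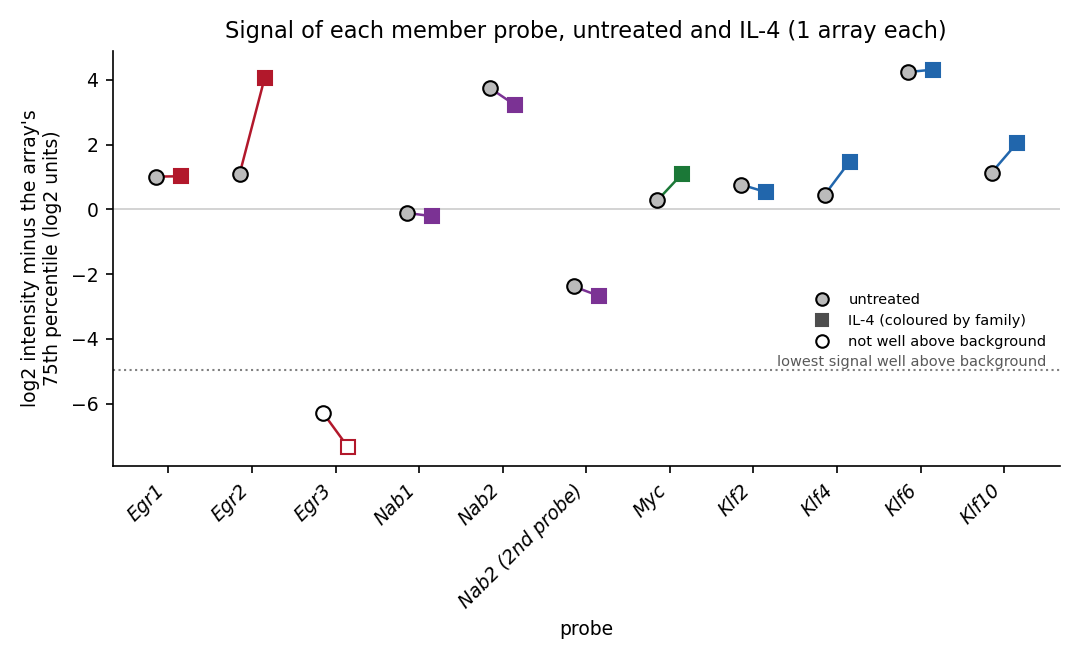
Scaled signal of each of the 11 probes untreated (grey circles) and after IL-4 (squares, coloured by family), as log2 intensity minus the 75th percentile of the array. Open symbols are signals not well above background. The line for Egr2 climbs from 1.08 to 4.06, those for Klf4, Klf10 and Myc climb less, and those for Egr1, Nab1 and Klf6 are nearly level.

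The promoters of the members that had a RefSeq window were searched for sequence motifs. They are shown for 3 members, Egr2 and Klf4 because these passed the 2-fold cutoff, and Nab1 because its promoter held the EGR motif. Each is the stretch of 250 bases before a RefSeq transcript start, on the strand of the gene, in build GRCm38.p6, with motif matches in capitals.
Egr2, chr10:67537620-67537869, plus strand: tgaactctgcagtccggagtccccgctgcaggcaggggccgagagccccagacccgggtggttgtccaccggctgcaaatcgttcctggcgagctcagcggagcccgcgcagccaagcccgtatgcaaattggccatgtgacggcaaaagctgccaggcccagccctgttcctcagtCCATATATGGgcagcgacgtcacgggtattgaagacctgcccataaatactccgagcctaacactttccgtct
Klf4, chr4:55532476-55532725, minus strand: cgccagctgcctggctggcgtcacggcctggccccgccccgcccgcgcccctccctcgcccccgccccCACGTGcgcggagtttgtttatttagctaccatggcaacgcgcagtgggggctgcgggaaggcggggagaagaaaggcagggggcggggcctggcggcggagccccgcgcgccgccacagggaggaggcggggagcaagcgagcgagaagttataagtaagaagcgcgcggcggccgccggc
Nab1, chr1:52500449-52500698, minus strand: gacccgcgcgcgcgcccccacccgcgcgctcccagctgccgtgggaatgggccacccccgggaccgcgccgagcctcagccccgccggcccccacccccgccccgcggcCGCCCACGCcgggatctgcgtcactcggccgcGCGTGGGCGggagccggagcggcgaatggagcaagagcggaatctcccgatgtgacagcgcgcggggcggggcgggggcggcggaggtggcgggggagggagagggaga
Windows from 250 bases before to 50 bases after the start were read on both strands for GCGTGGGCG (EGR), GGGTGTGG or GGGCGTGG (KLF), CACGTG (E-box), TTCNNNGAA (STAT factors), the STAT6 motif, which has 1 more base in its spacer, and the CArG box of serum response factor. The EGR and KLF motifs share letters and can overlap, and the members' matches did not. Among the members, 6 had windows: Egr2, Klf2, Klf4, Klf6, Nab1 and Nab2. The capitals in the Egr2 stretch are a CArG box starting at base -73, and this motif stood in 1.63% of all 32851 windows. RefSeq lists 5 starts for Egr2, some a few bases apart, and 4 of their windows held a CArG box. Since 3 of these windows overlap and share the box shown, the boxes stand at 2 distinct places. The remaining Egr2 window held an E-box, as did those of Klf4, at base -182, and Klf6, at base -43, where 7.15% of all windows did. The Nab1 stretch held the EGR motif at 2 places, at bases -141 and -109, and 0.612% of all windows held it at least once. Nab2 had a KLF motif at base -30, found in 8.58% of all windows. No member window held the STAT6 motif or the other STAT motif, which 6.95% and 8.30% of all windows held. A match is a match of letters only, and the absence of one says only that these letters are not in this window.

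Among the EGR factors, the Egr2 probe had an intensity of 1941 in untreated BMDMs and 16338 after IL-4. The log2 difference was 2.97, with a spot SD of 0.051 and a software error of 0.20. EGR2 (Krox20) is a zinc finger factor of myeloid cells, lymphocytes and Schwann cells. Among the 12744 genes measured on both arrays, 17 had a higher log2 difference than Egr2, or 0.133%. Under the 12 other settings tried for scaling, background and filters, its log2 difference lay between 2.90 and 3.26. Egr1 encodes the best known immediate early factor of the family. Its intensity was 1849 untreated and 1995 after IL-4, a log2 difference of 0.01 with a spot SD of 0.057. Of all genes measured on both arrays, 46.1% had a higher difference than Egr1, so it sat near the middle of the array. Its sign was not fixed: across the settings it lay between -0.04 and 0.30, and relative to the median of all genes between -0.01 and 0.06. The gap between Egr2 and Egr1 on the log2 scale was 2.96, with a software error of 0.29. Egr3, a close relative that shares targets with Egr2 in lymphocytes, had intensities of 11.7 and 5.998, below the lowest signals that counted as well above background, so no fold is given.

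Of the NAB corepressors, Nab2 was read with 2 probes. The brighter one had an intensity of 12258 untreated and 9144 after IL-4, a log2 difference of -0.52 with a spot SD of 0.048 and a software error of 0.20. The dimmer one, designed on another transcript, had intensities of 176 and 154, a log2 difference of -0.29 with a spot SD of 0.11. Both probes were thus lower on the IL-4 array, which is the opposite side from Egr2. Of the genes measured on both arrays, 6.65% had a lower difference than the brighter probe. Its log2 difference lay between -0.61 and -0.24 over the settings. Nab1 had intensities of 849.3 and 848.8, a log2 difference of -0.10 with a software error of 0.20, so its signal before scaling was the same on both arrays within that error. Its promoter, with 2 EGR motifs, is shown above. The sign of Nab1 turned under 2 settings, with median scaling and with scaling on spike-in controls, where all genes moved up together. Relative to the median of all genes it stayed between -0.09 and -0.06. The gap between Nab2 and Nab1 was -0.42, with a software error of 0.29.

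Of the Krüppel-like factors, Klf4 and Klf10 were higher after IL-4, Klf6 was near level and Klf2 was slightly lower. Klf4, a factor that limits inflammatory gene expression in macrophages and marks their M2-like state, had an intensity of 1246 untreated and 2731 after IL-4. Its log2 difference was 1.03, with a spot SD of 0.059 and a software error of 0.20, so it stood on the 2-fold line within its error. It fell short of 2-fold, at 0.98, when only probes detected on both arrays set the 75th percentile, and passed it in the other 11 alternatives. Klf10, a gene induced by TGF-β and also named Tieg1, had intensities of 2015 and 4037, a log2 difference of 0.90 with a spot SD of 0.054. Its difference and that of Klf4 were 0.13 apart with a software error of 0.29, so the 2 genes cannot be ranked although the 2-fold cutoff parts them. Klf6, which is known to promote inflammatory gene expression in macrophages, had intensities of 17359 and 19588 and a log2 difference of 0.07 with a spot SD of 0.052. Klf2, a factor of quiescence in lymphocytes, endothelium and monocytes, had intensities of 1560 and 1421 and a log2 difference of -0.23 with a spot SD of 0.058. For Klf2 this exceeds the spot SD 4.04 times and the software error 1.15 times. Klf6 was at -0.03 after quantile normalization and Klf2 at 0.05 with spike-in scaling, and both kept their sign in the other settings. The gap between Klf4 and Klf2 was 1.27, and that between Klf4 and Klf6 0.96, each with a software error of 0.29.

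**Figure D2:**
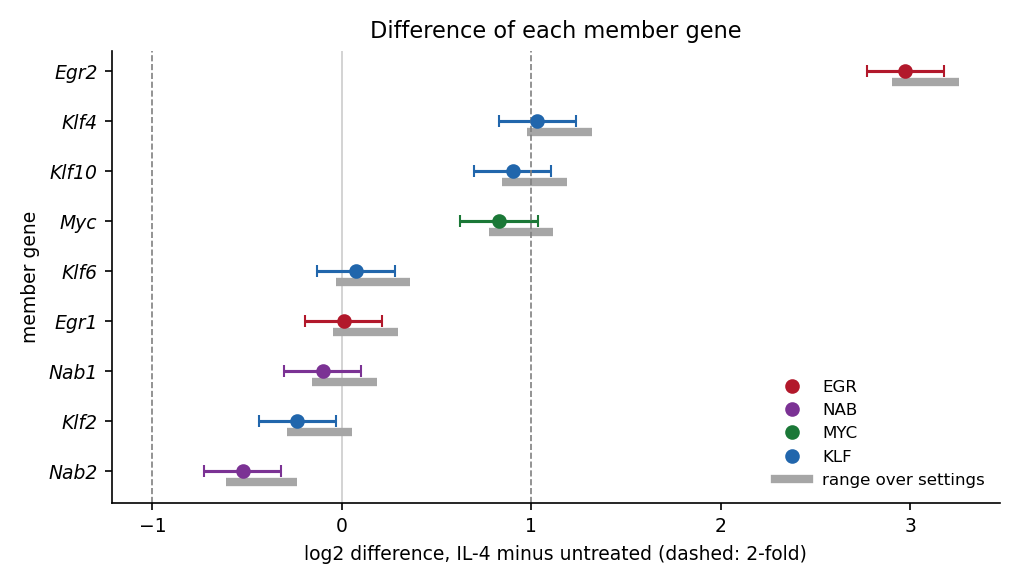
Log2 difference, IL-4 minus untreated, of the 9 member genes measured on both arrays, read from the brightest probe. Points are the values, error bars the software error of the difference, grey bars the range over the main and 12 other settings, and dashed lines 2-fold. Egr2 stands alone at 2.97, Klf4, Klf10 and Myc lie between 0.83 and 1.03 around the 2-fold line, Klf6, Egr1 and Nab1 have error bars that cross 0, and Klf2 and Nab2 lie below 0.

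Myc had an intensity of 1111 in untreated BMDMs and 2116 after IL-4. The log2 difference was 0.83, with a spot SD of 0.058 and a software error of 0.20, which is 14.3 and 4.06 times these errors. Of all genes measured on both arrays, 3.15% had a higher difference. It lay between 0.78 and 1.12 over the settings and past 2-fold in 2 of them. Myc and Klf10 were 0.07 apart on the log2 scale, less than their spot SD. Among MYC's partners and rivals for MAX, 12 genes were listed and 9 measured on both arrays. None reached 2-fold in either direction, and their median log2 difference was 0.11. Max, the obligate partner, had intensities of 6826 and 8232 and a log2 difference of 0.17. The highest values were those of Mlxip and Mxd3, at 0.39 and 0.27. The lowest was that of Mxd1, which encodes a MAX-binding antagonist of MYC, at -0.34, and its second probe was at -0.19. Mycl, a relative of Myc, was well above background on the untreated array only, with intensities of 42.4 and 27.9. Its log2 difference was -0.70 with a spot SD of 0.29, and lay between -0.76 and -0.27 over the settings that gave one. Mycn was below the detection limit on both.

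All 30 MYC target genes, most of them genes of ribosome biogenesis, nucleolar function and growth, were measured on both arrays. Their median log2 difference was 0.32, beside -0.01 over all genes, and 27 of the 30 were above 0, where 47.7% of all genes were. The list was chosen with earlier results of these data known, and the count was not tested. All of its genes were read on the same 2 arrays, so they are not 30 separate observations. Tfrc, the transferrin receptor, was the single target at least 2-fold higher, with intensities of 1071 and 2437. Its 3 probes had log2 differences of 1.09, 1.32 and 0.83. Nop56, a core protein of the box C/D small nucleolar RNPs, had intensities of 8769 and 14580, a log2 difference of 0.63, and its second probe gave 0.59. The lowest were Cad, the enzyme that starts pyrimidine synthesis, at -0.16 with a spot SD of 0.20, and Ccnd2, a D-type cyclin, at -0.11. The median of the list exceeded that of all genes by 0.29 to 0.36 over the settings, and between 26 and 28 of its genes lay above that median. Most single genes of the list differed by less than 1.5-fold.

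**Figure D3:**
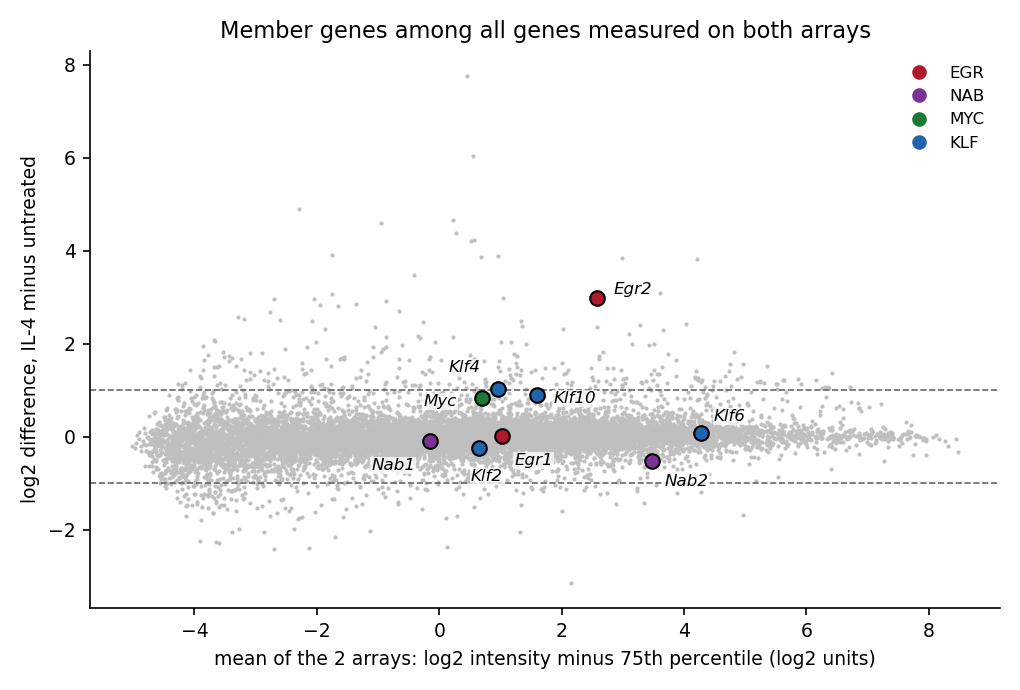
Log2 difference, IL-4 minus untreated, against the mean scaled log2 signal of the 2 arrays for the 12744 genes measured on both (grey), with the 9 member genes in colour. Dashed lines are 2-fold. Egr2 stands above all but 17 genes, Klf4, Klf10 and Myc lie at the upper edge of the cloud, between 2.20% and 3.15% of genes being higher, and Egr1 and Klf6 lie inside it.

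Genes that EGR factors are known to regulate lay on both sides of 0. Of 10 listed, 9 were measured on both arrays, with 2 past 2-fold higher, 0 past 2-fold lower and a median log2 difference of 0.30. Above 0 were 5 of the 9, where 47.7% of all genes were. Of all genes measured on both arrays, 2.31% were past 2-fold higher and 1.44% lower, and the median was -0.01. Cblb, a ubiquitin ligase that restrains lymphocyte activation, had intensities of 1269 and 3139 and log2 differences of 1.21 and 1.01 at its 2 probes. Icam1, an adhesion molecule, had intensities of 161 and 373 and a log2 difference of 1.11. The lowest were Nab2, given above, and Id3, an inhibitor of basic helix-loop-helix factors, at -0.44. Icam1 was at 0.56 with normexp, a setting that differs in the signal read, the background correction and the offset together. Regulators of EGR genes lay near or slightly below 0: those of serum response factor (Srf) and its ternary complex partners Elk1, Elk3 and Elk4 lay between -0.22 and 0.07 at their brightest probes. Elk3 was the lowest, at -0.22 with a spot SD of 0.049, and its other probes gave -0.12 and -0.41. The second probe of Elk1 gave -0.23. The dimmest probe of Elk4 gave -0.67, against its brightest one.

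The rest of the KLF family was mostly below or near 0. Of 13 other Klf genes, 8 were measured on both arrays, with a median log2 difference of -0.12, and 4 were not well above background on either. The lowest were Klf11, at -0.62 with a spot SD of 0.29 and intensities of 40.5 and 28.2, and Klf3, at -0.37 with intensities of 7772 and 6429. Klf9, a glucocorticoid and thyroid hormone target, was highest at 0.51, with intensities of 1508 and 2306. Klf17 had intensities of 5.85 and 114 and was well above background after IL-4 only, which makes it at least 3.64-fold higher at this probe. The bound on the log2 scale was 1.86, and 1.15 with normexp, and its second probe was undetected on both. Genes that KLF2 and KLF4 are known to regulate lay on both sides of 0, with 3 above and 3 below among the 6 measured on both arrays. Their median was -0.26, and lay between -0.31 and 0.03 over the settings. Zc3h12a, an RNase that destroys inflammatory transcripts, had intensities of 92.8 and 203 and a log2 difference of 1.03, or 0.53 with normexp. Cdkn1a, a cell cycle inhibitor, was at 0.59. Thbd (thrombomodulin) and S1pr1, the receptor for sphingosine 1-phosphate, were at -0.81 and -0.55, with intensities of 1742 and 1065 for Thbd.

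**Figure D4:**
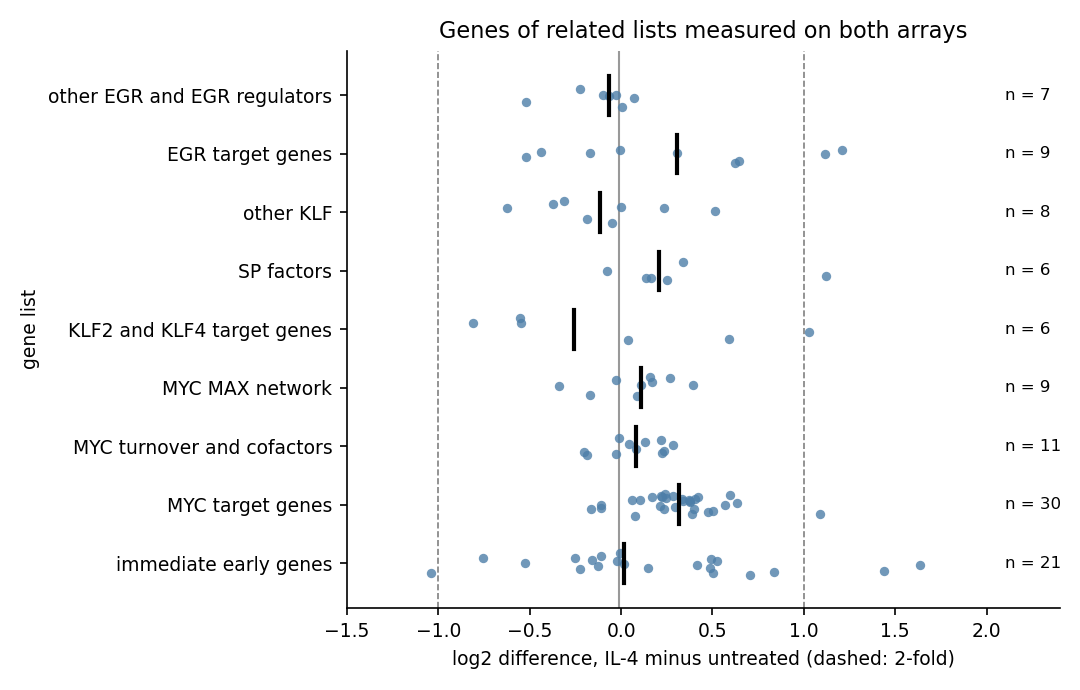
Log2 difference, IL-4 minus untreated, of each gene measured on both arrays in 9 lists of related genes (points), with the median of the list (black bar) and the number of genes. The grey line is the median of all genes and dashed lines are 2-fold. The MYC target genes cluster to the right around 0.32, while the immediate early genes spread from -1.04 to 1.64.

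Other immediate early genes showed no common direction. Of 23 listed, 21 were measured on both arrays, 2 were past 2-fold higher and 1 past 2-fold lower, and their median log2 difference was 0.02. The shares over all genes measured on both arrays were 2.31% higher and 1.44% lower, with a median of -0.01. Dusp2, a phosphatase that turns off MAP kinases, had intensities of 776 and 2588 and a log2 difference of 1.64. Atf3, a stress-induced repressor, had intensities of 6347 and 18466 and a log2 difference of 1.44. At the other end, Fos had intensities of 917 and 493 and a log2 difference of -1.04, and Nr4a1, a nuclear receptor induced by many stimuli, had 1850 and 1172 and -0.76. Fos was past 2-fold in 8 of the 13 settings, the main one included, and below 0 in all of them. Egr1, at 0.01, lay close to the median of this list, and Egr2 lay above every gene of it measured on both arrays.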

How the data were processed

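RNA of 1 untreated and 1 IL-4-treated culture was labelled with Cy3 and read on 1 Agilent array each. The authors deposited Feature Extraction 10.10.1.1 output with default settings, in which each spot's intensity is background-subtracted and detrended but not scaled between arrays. A second deposited table by the authors holds log2 values after their own processing, with centring unknown. Its column medians were 0.16 (untreated) and 0.02 (IL-4), and its differences for the 11 probes were offset by 0.00056 from those computed here. For these probes its scaling between arrays was thus nearly the one used here. The table served as an alternative, but for the members it nearly repeats the main setting.

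Outlier and control spots were left out, log2 intensities averaged per probe, and the 75th percentile of each array (9.84 and 9.94) subtracted. A gene was read from its brightest detected probe. A probe detected on 1 array only gives a bound where the dimmest detected signal of the other array was higher than its own. Its signal there was replaced by that dimmest signal. Otherwise, as for Mycl and Sp8, the value is the plain difference of the signals. Probe annotation followed mm9, and names came through RefSeq accessions of GRCm38.p6. The files hold no mean spot intensity, so normexp (offset 50) used the median pixel intensity. Counting was tested on simulated data, with changes past the cutoff planted in bright probes only. That test did not exercise the bound for probes detected on 1 array. Python 3.11.15, pandas 2.3.3, numpy 2.4.6, limma 3.58.1 under R 4.3.3 did the computing.

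The members and gene lists were chosen with earlier results of these data known. All members are named, and of each list the 2 highest, the 2 lowest and any past 2-fold, except 1 gene that is not reported here. With 2 arrays, likeness to a member's pattern has no meaning, and no gene was named for it.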

Additional observations from a re-analysis of the deposited data

How the results depend on the processing

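No paired analysis was possible because untreated and treated cells were read on a single array each, and no replicate could be left out. The count of members past 2-fold higher was 2, and became 4 with median scaling, 4 with spike-in scaling, 3 without scaling, 1 when only probes detected on both arrays set the 75th percentile, 4 at a 1.5-fold cutoff and 1 at a 4-fold cutoff. The count past 2-fold lower was 0, and became 1 with no filter on dim probes, by Egr3, which was not well above background on either. The median log2 difference of the members, 0.07, was 0.29 with median scaling, -0.017 with quantile normalization, 0.17 without scaling and 0.36 with spike-in scaling. The all-gene median itself, -0.01, was at 0.20 under the first of these and at 0.27 under the last. Of the 12744 genes measured on both arrays, 295 were past 2-fold higher and 184 past 2-fold lower in the main setting. The genes past 2-fold higher numbered 438 with median scaling, 497 with spike-in scaling and 359 without scaling. Those past 2-fold lower numbered 97, 80 and 136 in the same order. When only probes detected on both arrays set the 75th percentile, 269 genes were past 2-fold higher and 218 lower. Cutoffs and filter act on the counts by construction. Why the scalings differ was not tested. Egr2, Klf4, Klf10 and Myc stayed above 0 and Nab2 below 0 in every setting run. Relative to the median of all genes, Egr2 stayed between 2.92 and 2.99, Klf4 between 1.02 and 1.07 and Klf10 between 0.88 and 0.92. On that measure Myc stayed between 0.82 and 0.85, Nab2 between -0.59 and -0.39 and Klf2 between -0.25 and -0.14. Many settings cannot move such relative values, here or above. Scaling by the median, by spike-ins, by the other 75th percentile or not at all shifts all genes of an array alike. The filters on dim probes do not touch genes detected on both arrays. The ends of the ranges given here come from quantile normalization, cyclic loess normalization, normexp and the median over a gene's probes. Among the other recomputed values, which are of single genes and of lists, 851 kept within the spot SD or, for counts, within 1.5 times, and 273 did not. Among the members and the listed genes, none past 2-fold in the main setting changed sign. The other genes of the array were not checked for this. Dim probes limit what can be read of Egr3.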

Other observations

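The SP factors bind the same GC-rich boxes as the KLF factors and belong to the same superfamily. Of 9 listed, 6 were measured on both arrays, with a median log2 difference of 0.21. Sp6 was the single one past 2-fold, at 1.12, but with intensities of 33.8 and 78.7, a spot SD of 0.23 and a value of 0.23 with normexp. Sp3 was at 0.34 and Sp1, the ubiquitous member, was at 0.14, with intensities of 1941 and 2290. The lowest were Sp8 and Sp7, at -0.34 and -0.07. Sp8 was well above background on the untreated array only, with intensities of 35.3 and 29.8 and a spot SD of 0.30. Its log2 difference lay between -0.40 and -0.06 over the settings that gave one.

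Genes for the turnover and cofactors of MYC kept close to their untreated signal. Of 13 listed, 11 were measured on both arrays, none reached 2-fold in either direction, and their median log2 difference was 0.08. Ruvbl1, a helicase that MYC binds, was highest at 0.28. Trrap, a scaffold of histone acetyltransferases, and Fbxw7, the ubiquitin ligase subunit that marks MYC for degradation, were lowest at -0.20 and -0.19, and each was above 0 in 2 of the 13 settings.

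Several genes had probes that did not agree. Mlxipl (ChREBP) was at 0.11 at its brighter probe and 1.61 at its dimmer one. Fosl2 was at 0.52 and -0.89, and Nr4a2 at -0.01 and -0.89. These 3 genes were chosen after their values were seen.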
